A study of Mus musculus with 2 samples.

Results

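The mitochondrial solute carriers of the Slc25 family were examined in iBAT, the interscapular depot of brown adipose tissue, which makes heat. Members were every gene whose symbol was Slc25a followed by a number, which gave 47 of the 27179 genes counted. The uncoupling protein genes Ucp1, Ucp2 and Ucp3 encode carriers of the same fold under another name and were not members. Of the 47 members, 42 reached a normalised count of 10 on average over both libraries and were examined among 15212 genes that met this minimum. The tissue came from untreated C57BL/6N mice that were 20 days old and labelled male, either wild-type (WT) or carrying the Ucp1 knockout (Ucp1-KO). Each genotype was represented by 1 library pooled from 3 animals, so no test between animals was possible and each difference below is between those libraries. The comparison asks how mRNA of the carriers differed in young brown fat that lacks functional Ucp1.

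Slc25 carriers sit mostly in the inner mitochondrial membrane and pass small charged molecules between the matrix and the space outside it. They exchange ADP for ATP, bring in phosphate, acylcarnitines and cofactors, and let out citrate for fat synthesis in the cytosol. In brown fat the fuel for heat is largely fatty acid, which enters the matrix as acylcarnitine, and the heat itself is made by Ucp1, which lets protons return to the matrix without ATP being made.

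The libraries held 52950913 (WT) and 53216727 (Ucp1-KO) counts, of which genes of mitochondrial DNA took 22.4% and 36.7%. Counts were therefore divided by median-of-ratios factors (1.11 and 0.901), which left the median log2 ratio of all genes examined at -0.0016, whereas scaling by library totals placed it at -0.31. Ucp1, the targeted gene, had 366473 counts in WT and 37853 in Ucp1-KO (log2 ratio -2.98). All 6 adipocyte and all 7 brown adipocyte markers were detected in both libraries, with a median log2 ratio of 0.25 for the former and 1.39 for the latter, although the summed counts of the latter, which include Ucp1, had a ratio of -0.84. In Ucp1-KO all 20 markers of skeletal muscle were lower by 2-fold or more (summed counts 365397 and 45803), and 9 of 10 endothelial markers had a log2 ratio below 0 (summed counts 124224 and 61811). None of the muscle or endothelial markers was at 0. Of the Y chromosome's genes, Ddx3y, Kdm5d, Eif2s3y and Uty had 0 counts in WT, against the label male, and 3446, 570, 491 and 798 in Ucp1-KO, while Xist, which is transcribed from the inactive X of females, had 32380 and 16478. The Xist counts of both libraries go against the label male as well. WT thus had Xist but no count for these Y genes, whereas Ucp1-KO had both. How many animals of each sex were in the Ucp1-KO pool was not resolved, and genotype and sex cannot be told apart. Fewer cells of a type and less RNA per cell cannot be told apart in such bulk libraries either.

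Taken over its members, the family was centred near 0. The median log2 ratio of Ucp1-KO over WT was -0.026 for the 42 members (quartiles -0.46 and 0.25) and -0.0016 for all genes examined. A log2 ratio above 0 was found for 20 members and below 0 for 22. In 14 members (33.3%) the ratio was higher and in 16 (38.1%) lower by more than its 95% counting interval, and 12 lay within it. Of all genes examined, 31.5% were higher and 30.5% lower in this way, so the members lay near the background. These intervals treat 2 counts as 1 read pair, because low counts were mostly even, and cover counting error only. They are narrow at high counts and say nothing of the spread between animals.

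At a size of at least 2-fold, 1 member was higher in Ucp1-KO (Slc25a18) and 5 were lower (Slc25a1, Slc25a29, Slc25a10, Slc25a12 and Slc25a48). That is 2.38% and 11.9% of the members, beside 7.42% and 9.55% of all genes examined. At 1.5-fold, 5 members were higher (11.9%) and 9 lower (21.4%), beside 15.4% and 17.9% of all genes. The shares of lower members thus lay close to the background at either size. Among genes averaging at least 100 normalised counts, none of 38 members was 2-fold higher and 5 (13.2%) were 2-fold lower, beside 3.87% and 5.2% of all such genes. The members nearest to the 2-fold line were Slc25a48 (-1.06) and Slc25a12 (-1.10) inside it and Slc25a27 (-0.96) and Slc25a15 (-0.73) outside it.

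**Figure D1:**
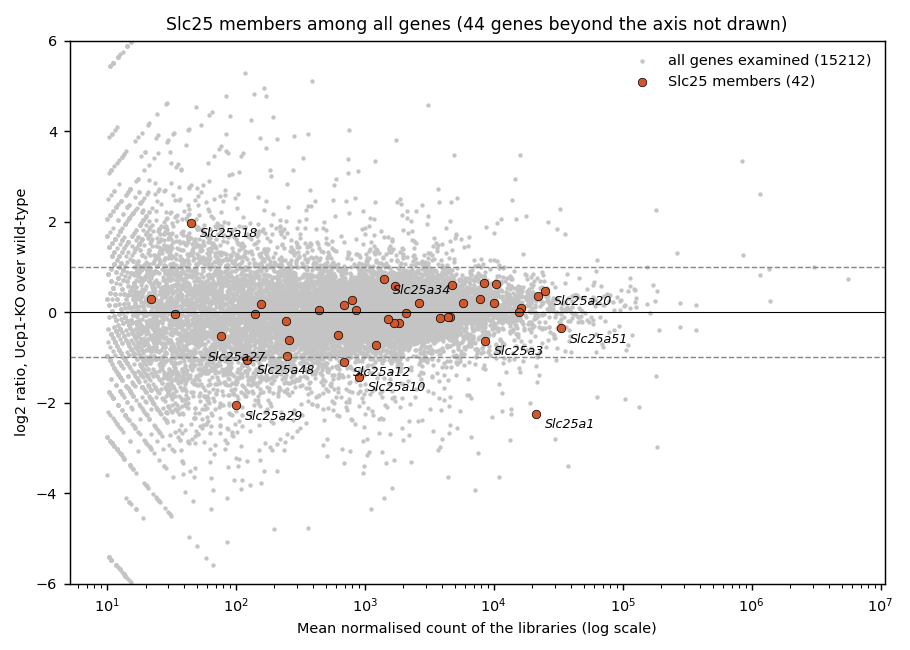
Each point is a gene, with its mean normalised count over both libraries on a log axis and its log2 ratio of Ucp1-KO over WT on the vertical axis; dashed lines mark 2-fold. The 42 Slc25 members lie on both sides of 0 among the 15212 genes examined, and Slc25a1 at -2.25 stands below the other members of high count.

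The summed counts of all 47 members were 254830 in WT and 195141 in Ucp1-KO, or 0.481% and 0.367% of all counts. After scaling, the sum had a log2 ratio of -0.085 (95% counting interval -0.097 to -0.073). Without Slc25a1 the sum of the other 46 members had a log2 ratio of 0.10 (0.091 to 0.12), so Slc25a1 decided the side of 0 on which the sum lay. This carrier took 15.2% of the family's counts in WT and 3.40% in Ucp1-KO. Slc25a51, the most counted member, took 16.2% and 13.5%, and without it the sum had a log2 ratio of -0.039. The 10 most counted members held 77.8% of the family's counts in WT and 75.6% in Ucp1-KO.

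Compared per length, as normalised counts per kilobase of exon, carriers of citrate, ADP/ATP, NAD+ and acylcarnitine led the family in both libraries. In WT the order began with Slc25a1 (14575 per kilobase), Slc25a5 (10894), Slc25a51 (5534), Slc25a4 (5374) and Slc25a20 (2995). In Ucp1-KO it began with Slc25a5 (14039), Slc25a4 (5749), Slc25a51 (4335), Slc25a20 (4168) and Slc25a1 (3066). Slc25a1 thus moved from place 1 to place 5, and the same 5 carriers filled these places in each library. The counting intervals of Slc25a51 and Slc25a4 overlapped in WT, so their order there was not resolved, whereas the other neighbours among these 5 were apart in both libraries. The glutathione carrier Slc25a39 (1998 per kilobase) and the oxoglutarate carrier Slc25a11 (1698) were also among the 8 highest in WT. The median level of the members with any count was 232 per kilobase in WT and 240.1 in Ucp1-KO.

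**Figure D2:**
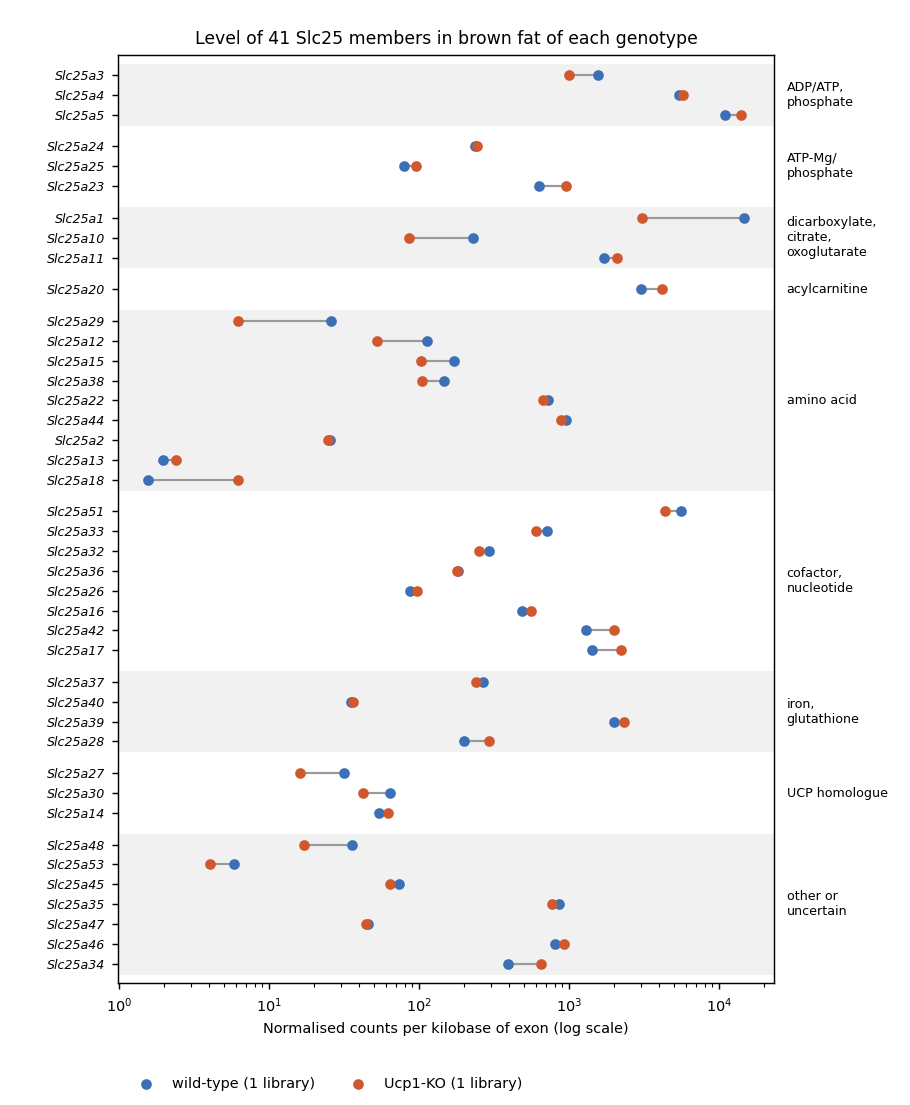
Points give the level of each of 41 Slc25 members in normalised counts per kilobase of exon, on a log axis, in the WT and the Ucp1-KO library, with members grouped by what they carry. Slc25a1 has the widest gap among the abundant members (14575 in WT and 3066 in Ucp1-KO), whereas those of Slc25a4 (5374 and 5749) lie close together.

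The carriers of citrate, dicarboxylates and oxoglutarate had the lowest median log2 ratio of the role groups (-1.43 over 3 members examined). Slc25a1, the citrate carrier that delivers acetyl units for fatty acid synthesis, had 38856 counts in WT and 6641 in Ucp1-KO. The Ucp1-KO library was the lower, at 21.0% of the WT level (log2 ratio -2.25, interval -2.30 to -2.20). Slc25a10, which exchanges malate or succinate for phosphate, had 1467 counts in WT and 441 in Ucp1-KO. It too was lower in Ucp1-KO, at 37.0% of WT (-1.43, -1.66 to -1.22). Slc25a11, which exchanges oxoglutarate for malate in the malate-aspartate shuttle, had 7858 counts in WT and 7826 in Ucp1-KO. Its log2 ratio was 0.29 (0.23 to 0.36), but lay just below 0, at -0.013, when library totals were used. Per length, Slc25a11 stood at 7.38 times the level of Slc25a10 in WT and 24.4 times in Ucp1-KO.

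Slc25a1 lies on chromosome 16 (GRCm39, minus strand, 17743075 to 17746245). The 250 bases before its start are shown because it had the largest difference of the family, with the letters CACGTG (an E-box), GGGCGG (a GC box) and CCAAT, on either strand, in capitals. The sequence is that of RefSeq at chr16:17928220-17928469 in GRCm38.p6, read 5′ to 3′ on the minus strand.
Slc25a1: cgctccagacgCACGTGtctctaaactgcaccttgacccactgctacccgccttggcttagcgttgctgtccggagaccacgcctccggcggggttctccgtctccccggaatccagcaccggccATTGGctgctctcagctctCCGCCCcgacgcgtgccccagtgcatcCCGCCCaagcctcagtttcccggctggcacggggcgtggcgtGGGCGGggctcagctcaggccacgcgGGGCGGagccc
It held 1 E-box, 4 GC boxes and 1 CCAAT box. An E-box was present in 6.02% of 32851 promoters of this length, a GC box in 32.7% and a CCAAT box in 33.8%. The letters TCACNCCAC, a form of the sterol response element, were not in this window. These matches describe letters only, and no binding was measured.

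The enzymes that use citrate in the cytosol were lower in Ucp1-KO, whereas citrate synthase was not. Among the former, Acly, which splits exported citrate, had a log2 ratio of -1.93, Acaca, which makes malonyl-CoA, -1.87, and Fasn, the fatty acid synthase, -2.11. Me1, the malic enzyme that yields NADPH, was also more than 2-fold lower (-1.38). Cs, the citrate synthase of the matrix, stood at 0.52. Of the 7 genes on this list, 4 (57.1%) were at least 2-fold lower and none was 2-fold higher, beside 9.55% and 7.42% of all genes. Their median was -1.38, and the ratio of their summed counts was smaller, at -0.63. The ratio of Slc25a1 (-2.25) lay near those of the cytosolic enzymes downstream of it.

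Among the carriers that supply oxidative phosphorylation, the ADP/ATP carriers and the phosphate carrier lay on opposite sides of 0. Slc25a5, the ADP/ATP carrier found in most tissues, had 21356 counts in WT and 22360 in Ucp1-KO (log2 ratio 0.37, 0.33 to 0.40). Slc25a4, the ADP/ATP carrier of heart and skeletal muscle, had 17631 and 15324 (0.097, 0.053 to 0.14), a value that lay at -0.21 under library totals. Slc25a3, the carrier that brings phosphate to ATP synthase, had 11636 counts in WT and 6114 in Ucp1-KO, and was lower in the latter (-0.63, -0.69 to -0.57). None of the 3 reached 2-fold. Per length, Slc25a5 was at 2.03 times the level of Slc25a4 in WT and 2.44 times in Ucp1-KO. Slc25a5 lies on the X chromosome and was the only member with near-identical copies elsewhere in the genome, so part of its reads may have been split by the counting. The share of muscle RNA in the level of Slc25a4 was not tested. The 15 ATP synthase subunits encoded in the nucleus had a median log2 ratio of -0.13 and a ratio of 0.10 for their summed counts. None was 2-fold different, the lowest being Atp5mc1, a subunit of the rotating ring, at -0.96.

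The calcium-regulated ATP-Mg/phosphate carriers, which adjust the adenine nucleotide content of the matrix, had log2 ratios above 0 in 3 of the 3 examined, though Slc25a24 and Slc25a25 lay below 0 under library totals (-0.26 and -0.045). Slc25a23 was the highest of them (0.60, 0.52 to 0.68), with 4168 counts in WT and 5131 in Ucp1-KO. Slc25a25 stood at 0.26, and Slc25a24 at 0.044 was within counting error.

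The uncoupling proteins, relatives outside the symbol rule, differed among themselves. Beside the lower count of Ucp1, Ucp3 had 8535 counts in WT and 3957 in Ucp1-KO (-0.81), whereas Ucp2 had 6918 and 9684 (0.78). Ucp3 is known from skeletal muscle as well as brown fat, and the part of the muscle markers in its value was not tested.

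Slc25a20, which carries acylcarnitines into the matrix for fatty acid oxidation, was higher in Ucp1-KO. It had 23152 counts in WT and 26175 in Ucp1-KO (0.48, 0.44 to 0.51). The genes that work beside it ranged from -0.096 to 0.46. The plasma membrane carnitine transporter Slc22a5 stood at 0.46, the outer membrane transferases Cpt1b and Cpt1a at 0.35 and 0.30, carnitine acetyltransferase Crat at 0.18 and the inner membrane enzyme Cpt2 at -0.096. The median of these 5 genes was 0.30 and none reached 1.5-fold, and under library totals the median was -0.0022.

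Of the 9 amino acid carriers, 7 (77.8%) had a log2 ratio below 0, beside 50.1% of all genes examined. Their median was -0.11, and 6 (66.7%) were lower by more than counting error, beside 30.5% of all genes. The median depended on the count minimum, and was -0.62 for those averaging at least 50 normalised counts. The basic amino acid carrier Slc25a29 had 181 counts in WT and 35 in Ucp1-KO, the lower at 23.8% of WT (-2.06, -2.90 to -1.32). Its exons overlap those of Slc25a47 on the opposite strand by 230 bases, and Slc25a47 itself stood at -0.038. Slc25a12, the aspartate/glutamate carrier of excitable tissues and a step of the malate-aspartate shuttle, had 1041 counts in WT and 394 in Ucp1-KO (-1.10, -1.35 to -0.86). The muscle markers moved in the same direction, from 365397 to 45803 counts in sum, and their part in the value of Slc25a12 was not tested. Its paralogue Slc25a13, the form of liver, had only 22 counts in each library. Per length, Slc25a12 stood at 57.5 times the level of Slc25a13 in WT and 21.8 times in Ucp1-KO.

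The remaining amino acid carriers showed smaller differences, apart from Slc25a18. The ornithine carrier Slc25a15 was lower in Ucp1-KO (1699 and 831 counts, -0.73), as was the glycine carrier Slc25a38 (808 and 464, -0.50), whose glycine feeds haem synthesis. Slc25a44, which carries branched-chain amino acids into brown fat mitochondria, had 5120 counts in WT and 3874 in Ucp1-KO (-0.10, -0.19 to -0.017). The glutamate carrier Slc25a22 was similar at -0.11, and Slc25a2, a second ornithine carrier, lay within counting error at -0.041. The other glutamate carrier, Slc25a18, was the only member at least 2-fold higher, with 20 counts in WT and 65 in Ucp1-KO (1.97, 0.94 to 3.19). At this depth its interval reached below 2-fold. Its exons also overlap those of Atp6v1e1 on the opposite strand, a proton pump subunit with 5908 counts in WT and 9552 in Ucp1-KO (0.99), and whether reads of that gene entered the count of Slc25a18 was not tested.

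Among the 6 enzymes of the malate-aspartate and glycerophosphate shuttles, which move reducing equivalents of cytosolic NADH to mitochondria, 3 stood above 0 and 3 below. The cytosolic aminotransferase Got1 stood at 0.74 and cytosolic malate dehydrogenase Mdh1 at 0.38. The mitochondrial aminotransferase Got2 stood at -0.62, and the glycerophosphate dehydrogenases Gpd1 and Gpd2 at -0.39 and -0.21. The 2 carriers of the malate-aspartate shuttle with over 100 counts were likewise split, with Slc25a12 lower and Slc25a11 at 0.29 (-0.013 under library totals).

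**Figure D3:**
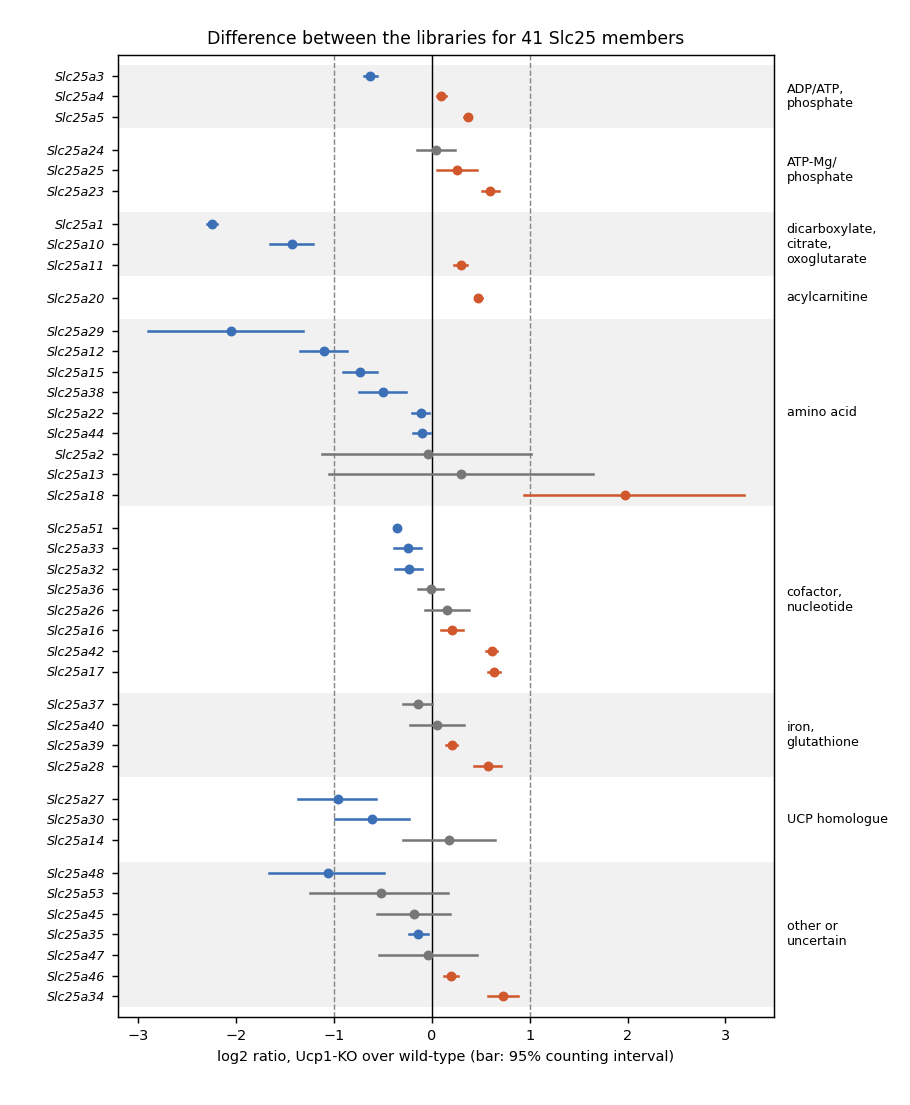
Points give the log2 ratio of Ucp1-KO over WT for 41 Slc25 members by role, with bars for the 95% counting interval; orange marks intervals above 0, blue intervals below 0 and grey those that include 0, and dashed lines mark 2-fold. The widest bars belong to members of low count, such as Slc25a18 (0.94 to 3.19) and Slc25a13 (-1.05 to 1.65), and the intervals of Slc25a1, Slc25a10 and Slc25a29 lie wholly beyond 2-fold.

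The cofactor and nucleotide carriers were balanced, with 3 of 9 higher (33.3%), 3 lower (33.3%) and 3 within counting error, and none at 2-fold. Of all genes examined, 31.5% were higher and 30.5% lower by more than counting error. The mitochondrial NAD+ carrier Slc25a51 had 41260 counts in WT and 26260 in Ucp1-KO, and was lower in the latter (-0.35, -0.38 to -0.32). Coenzyme A carriers lay on the other side: Slc25a42 had 9082 and 11293 counts (0.61, 0.56 to 0.67) and Slc25a16 had 2720 and 2550 (0.21, but -0.10 under library totals). Slc25a17, the carrier of coenzyme A and other cofactors in the peroxisomal membrane, had 7368 counts in WT and 9317 in Ucp1-KO (0.64, 0.58 to 0.70). The pyrimidine nucleotide carrier Slc25a33 (-0.25) and the folate carrier Slc25a32 (-0.24) were lower by more than counting error. Slc25a36, also a pyrimidine nucleotide carrier, and Slc25a26, which carries S-adenosylmethionine, lay within counting error. The exons of Slc25a26 overlap those of Lrig1 on the opposite strand by 1475 bases. Lrig1 had 2357 counts in WT and 1025 in Ucp1-KO (-0.90), and whether its reads entered the count of Slc25a26 was not tested.

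Of the 4 iron and glutathione carriers, 2 were higher in Ucp1-KO by more than counting error and 2 lay within it. Slc25a37 and Slc25a28, the mitoferrins that bring iron for haem and iron-sulphur clusters, had log2 ratios of -0.14 (within counting error) and 0.57 (0.43 to 0.71). Slc25a37 is the form of red cell precursors, and the erythroid markers found here had a median of -0.52. Per length, Slc25a28 stood at 0.747 times the level of Slc25a37 in WT and 1.22 times in Ucp1-KO, an order that depended on the length used, since it was above in both libraries (1.09 and 1.78 times) with the longest transcript. Of the glutathione carriers, Slc25a39 had 10433 counts in WT and 9772 in Ucp1-KO (0.21, but -0.10 under library totals), and Slc25a40 had 480 and 405, within counting error.

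The carriers named for their likeness to uncoupling proteins were of low count. Slc25a27 had 370 counts in WT and 154 in Ucp1-KO (-0.96, -1.37 to -0.57), and Slc25a30 had 346 and 184 (-0.61, -0.99 to -0.24). Both were lower in Ucp1-KO by more than counting error, whereas Slc25a14, with 163 and 150 counts, lay within it. Slc25a14 lies on the X chromosome.

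The members whose substrate is less certain included 1 at 2-fold, Slc25a48, with 185 counts in WT and 72 in Ucp1-KO (-1.06, -1.66 to -0.49). In the opposite direction, Slc25a34 had 1185 counts in WT and 1592 in Ucp1-KO (0.73, 0.57 to 0.88), the highest ratio among members averaging at least 100 normalised counts. Slc25a46, a protein of the outer membrane known for its part in mitochondrial shape, had 6011 and 5589 counts (0.19, but -0.11 under library totals). Slc25a35 was lower by little more than counting error (4423 and 3269 counts, -0.14), and Slc25a45, Slc25a47 and the X-linked Slc25a53 lay within it. The exons of Slc25a35 overlap those of Rangrf and a non-coding RNA on the opposite strand by 1335 bases. Rangrf stood at -0.63, and whether its reads entered the count of Slc25a35 was not tested.

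The promoter of Slc25a34 is printed because it had the highest ratio among members averaging at least 100 normalised counts, with the same letters in capitals. It is RefSeq sequence at chr4:141623835-141624084 in GRCm38.p6, read 5′ to 3′ on the minus strand.
Slc25a34: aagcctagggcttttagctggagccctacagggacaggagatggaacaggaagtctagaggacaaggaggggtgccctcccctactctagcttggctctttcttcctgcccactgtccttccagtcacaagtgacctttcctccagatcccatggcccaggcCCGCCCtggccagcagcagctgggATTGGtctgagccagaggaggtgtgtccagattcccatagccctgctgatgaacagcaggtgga
It held 1 GC box and 1 CCAAT box but no E-box, with a GC content of 58.4% against 70.0% for Slc25a1. It also held the nuclear receptor motif AGGTCA, which 14% of all promoters held.

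The 5 members under the minimum were near or at 0 in both libraries. Slc25a41 and Slc25a54 had 0 counts in each, which allows up to 6 counts (3 read pairs, 0.113 CPM, counts scaled to the library total) per library. Slc25a31, the ADP/ATP carrier of germ cells, had 0 counts in WT and 7 in Ucp1-KO. Slc25a21, the oxoadipate carrier, had 8 and 4, and the X-linked Slc25a43 had 9 and 3. No difference was detectable for these genes at this depth.

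Other transporters of the mitochondrial membranes gave a comparison outside the family. The list held 23 genes and included the pyruvate carrier, the calcium uniporter, the porins and the sideroflexins. Its median log2 ratio was -0.13, and 15 genes (65.2%) lay below 0, beside 50.1% of all genes examined. On this list 1 gene (4.35%) was at least 2-fold lower and none 2-fold higher, beside 9.55% and 7.42% of all genes. Sfxn5, a sideroflexin, was the lowest at -1.16, and Micu3, a regulator of the uniporter, stood at 0.85. Sfxn2 was next in size, at -0.65. The subunits of the pyruvate carrier, Mpc1 and Mpc2, were at -0.59 and -0.53.

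**Figure D4:**
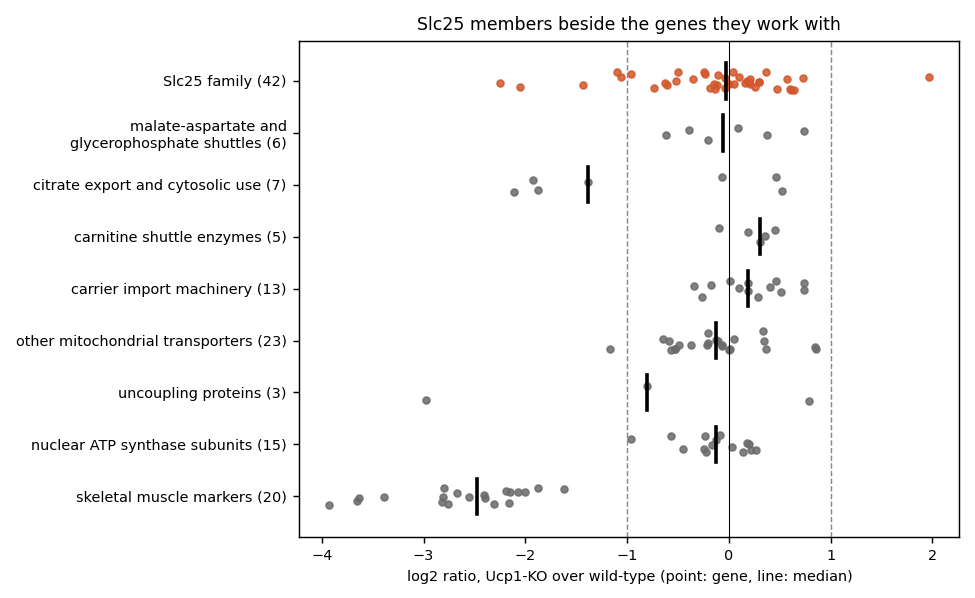
Each point is a gene and each black line the median of its list, with the log2 ratio of Ucp1-KO over WT on the horizontal axis and dashed lines at 2-fold; numbers in parentheses count the genes. The Slc25 family centres at -0.026, the citrate list at -1.38 with 4 of its 7 genes below -1, and the skeletal muscle markers at -2.48 with all 20 below -1.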

How the data were processed

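RNA of iBAT was sequenced from directional poly A-enriched libraries, 1 per genotype. The deposited values are whole-number counts per gene that the authors made with featureCounts and did not normalise. The submitters' processing notes name mm39, Trim Galore and HISAT2. The annotation and the settings for strand and multiply mapped reads are not given in the sources used here. If strand was ignored, overlapping genes may have shared or lost reads, depending on settings that are not given. Rows without a symbol (1319) were kept in the library sizes.

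Counts were divided by median-of-ratios factors computed as in DESeq2 (1.42.0, R 4.3.3), and the log2 ratio was taken after adding 0.5. Genes needed a mean normalised count of at least 10. TMM factors came from edgeR (4.0.16). No test was run, since each genotype had 1 library. Counts and ratios carry exact Poisson or conditional binomial intervals at 95% (scipy 1.17.1) on read pairs. A count of 0 was bounded by 3 read pairs. The functions were tested on simulated data. Exon lengths, positions and overlaps were read from GENCODE mouse release 39 (GRCm39), which matched all 47 members by symbol. Copies were sought with minimap2 (2.31) at 95% identity over at least 50% of a transcript. Promoter sequences are from RefSeq (GRCm38.p6), which held 36 of the members. Both strands were searched for CACGTG (E-box), TCACNCCAC (sterol response), AGGTCA (nuclear receptors), TCAAGGTCA (ERR, which contains the former), TGATGNAAT (ATF4), GGGCGG (GC box), the CCAAT box and the NRF1 motif.

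Members were named, except that 1 member and 1 enzyme are not reported here by name. Full counts were given for members at 2-fold, for the 8 highest per length in WT and for a set of central carriers, and up to 3 genes of each partner list were named by size among those averaging 100 or more normalised counts. The counts of other members, the remaining genes of the citrate, shuttle and carnitine lists, Mpc1, Mpc2, Timm22 and Agk were added after their values were seen. Members, role groups and lists were chosen with earlier results of these data known. Lists were enzymes of the shuttles, of citrate export and of carnitine, import machinery, other transporters, uncoupling proteins, ATP synthase subunits, and markers of brown adipocytes, adipocytes, muscle, endothelium, macrophages (median log2 ratio 0.19) and erythroid cells. Alternatives tried were other scalings, count minimums, pseudocounts and sizes.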

Additional observations from a re-analysis of the deposited data

How the results depend on the processing

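No replicate could be left out. No paired analysis was possible because there was only 1 library of each genotype. Members at least 2-fold higher numbered 2 without the count minimum, 0 at a mean of at least 50, 5 at 1.5-fold and 0 when the whole counting interval had to lie beyond 2-fold. Those lower numbered 9 at 1.5-fold and 3 by the interval.

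Scaling by library totals moved the median of all genes to -0.31 and every median here with it. The median log2 ratio became -0.33 for the family, -0.21 for the ADP/ATP and phosphate carriers, -0.045 for ATP-Mg/phosphate, -1.74 for citrate and dicarboxylates, 0.17 for acylcarnitine, -0.31 for cofactors and -0.18 for iron and glutathione. It became -0.37 for shuttle enzymes, -1.69 for the citrate list, -0.0022 for carnitine enzymes, -0.11 for import machinery, -0.43 for other transporters, -1.12 for uncoupling proteins and -0.43 for ATP synthase. Among markers it became 1.08 for brown adipocytes, -0.056 for adipocytes, -2.79 for muscle, -1.17 for endothelium, -0.12 for macrophages and -0.83 for erythroid cells. The sign turned for 12 members.

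The summed family stood at -0.39 by library totals, -0.098 by totals without genes of mitochondrial DNA, -0.039 without Slc25a51 and 0.10 without Slc25a1, the last chosen after seeing the data. Its share of counts outside those genes was 0.620% in WT and 0.579% in Ucp1-KO. Without the count minimum, the medians were 0.23 for ADP/ATP and phosphate carriers and -1.04 for citrate and dicarboxylates. As ratios of summed counts, the lists stood at -0.27 (shuttles), -0.63 (citrate), -2.59 (uncoupling proteins), 0.10 (ATP synthase), -2.70 (muscle) and -0.71 (endothelium). The brown adipocyte markers turned to -0.84 in this form. Members at least 2-fold lower numbered 5 to 7 under the other scalings, count minimums and pseudocount.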

Other observations

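The machinery that brings carriers into the inner membrane stood slightly above the family. Of 13 genes, 10 had a log2 ratio above 0, with a median of 0.19, and none was 2-fold different, although under library totals the median was -0.11. Every gene of this list averaged at least 1000 normalised counts. At that level the median was 0.056 for all genes and 0.049 for the 24 Slc25 members. Below 0 lay 23.1% of the import genes and 44.0% of all genes at that level. Tomm70a, the outer membrane receptor for carrier precursors, had 6246 counts in WT and 8472 in Ucp1-KO (0.74). Timm9 and Timm10, the small chaperones that escort carriers across the intermembrane space, stood at 0.74 and 0.51. Timm22, the channel that inserts them, stood at 0.40. Agk, a lipid kinase of the same complex, was the lowest of the list at -0.34.

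Motifs were also counted in the promoters of the members, where 36 members had 46 sequences and a member counted if any of its own held the motif, while shares of all promoters are per sequence. Of these 36 members with a sequence, 25 (69.4%) held a GC box, beside 32.7% of all promoters, 18 held CCAAT, beside 33.8% of all promoters, and 7 (19.4%) held an E-box, beside 6.02%. Their median GC content was also higher (57.4% against 52.4%), and its part in these shares was not tested. The E-box members were Slc25a1, Slc25a13, Slc25a14, Slc25a15, Slc25a31, Slc25a33 and Slc25a36, of which only Slc25a1 was 2-fold lower. AGGTCA was found in 4 members (14% of all promoters), the NRF1 motif in 2 (3.74%), TCACNCCAC in 1, Slc25a18 (1.05%), and TCAAGGTCA (0.387%) and TGATGNAAT (0.816%) in none.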
